A study of Mus musculus with 4 samples.

Results

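The 3 mouse hairpins that give miR-26a and miR-26b were followed in small RNA from extracellular vesicles, the membrane particles that cells release. Members were all rows of the count table with the mature ID of miR-26a-5p (MIMAT0000533) or miR-26b-5p (MIMAT0000534), plus the other arm of the same hairpin on the same strand, starting within 60 bases. This gave 6 of 2110 rows: 3 rows of 5p arms and 3 rows of 3p arms, for 5 different mature sequences. The rule itself refers to names and positions only. The vesicles came from C2C12, an established mouse myoblast line of WT genotype, grown in DMEM with 10% FBS and isolated by differential centrifugation. In 2 libraries, here called damaged, the cells had received hydrogen peroxide, and in the 2 others, here called WT, the treatment label is WT. The labels state neither dose nor time of hydrogen peroxide, and C2C12 is a single cell line. The comparison asks whether miRNA cargo differs between vesicles of healthy and damaged muscle cells.

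A miRNA hairpin is cut into a duplex, and the arm that is loaded into an Argonaute protein pairs with messenger RNAs mainly through its seed, bases 2 to 8. The hairpins of the miR-26 family lie in introns of the Ctdsp genes, which encode small phosphatases that act on the C-terminal domain of RNA polymerase II. In muscle cells miR-26a is known to promote differentiation, with the histone methyltransferase Ezh2 among its targets.

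The mature sequences are shown because both 5p forms carry one seed, which capitals mark. They are RNA, 5′ to 3′, from RefSeq on GRCm38.p6, the build that is also called mm10, and all 6 rows matched it by exact position.
miR-26a-5p: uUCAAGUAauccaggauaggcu
miR-26b-5p: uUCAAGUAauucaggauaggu
miR-26a-1-3p: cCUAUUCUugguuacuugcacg
miR-26a-2-3p: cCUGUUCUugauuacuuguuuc
miR-26b-3p: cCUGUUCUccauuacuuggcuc

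Counted from the 5′ end, miR-26b-5p differed from miR-26a-5p by C11U and C21U and was shorter by its last base. Over the 21 positions they share, 19 were identical, the seed included. Among 1957 mature IDs with a sequence, the seed UCAAGUA occurred in these 2 forms and in no other. The 3p arms were less alike. From miR-26a-1-3p to miR-26a-2-3p the changes were A4G, G11A, C19U, A20U, C21U and G22C, so 16 of 22 positions were identical and A4G gave the arms different seeds. From miR-26a-2-3p to miR-26b-3p the changes were U9C, G10C, U19G and U20C, outside the seed. The seed CUGUUCU of those arms also occurred in miR-6932-3p and miR-7039-3p.

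The hairpins show how the arms lie opposite each other, and capitals mark both mature arms.
Mir26a-1: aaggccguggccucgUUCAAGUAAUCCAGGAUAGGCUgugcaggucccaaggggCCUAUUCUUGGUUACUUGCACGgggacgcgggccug
Mir26a-2: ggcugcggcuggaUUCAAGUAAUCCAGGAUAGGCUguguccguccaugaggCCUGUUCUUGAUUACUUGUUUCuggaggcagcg
Mir26b: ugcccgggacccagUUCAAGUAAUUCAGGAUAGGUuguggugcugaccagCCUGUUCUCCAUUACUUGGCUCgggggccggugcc

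Positions below come from the count table (mm10, 1-based) and host genes from GENCODE vM21. The 5p row of Mir26a-1 lies at chr9:119031811-119031832 on the plus strand, in intron 5 of 7 of Ctdspl. That of Mir26a-2 lies at chr10:126995543-126995564 on the plus strand, in intron 5 of 7 of Ctdsp2. The 5p row of Mir26b lies at chr1:74394324-74394344 on the plus strand, in intron 4 of 6 of Ctdsp1. Each hairpin is intronic in the direction of its host gene. None of the 6 rows shares bases with an entry on the opposite strand, whereas 106 rows of the table do, so counting without strand mixed no annotated antisense miRNA into them.

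The libraries held 4577668 to 7638663 counts over miRNA rows, and 692 to 746 rows had a count. A count of 0 allows up to 3 counts in a library, or 0.393 to 0.655 CPM, the count scaled to library size. Libraries of 1 group differed beyond sampling noise, with a chi-square per degree of freedom of 109 in WT and 204 in damaged, and the labels do not say that they came from separate cultures. The p-values therefore measure the spread between these libraries, which may be technical. The skeletal muscle markers miR-206-3p, miR-1a-3p, miR-133a-3p and miR-133b-3p took 29.5% and 33.4% of the counts in WT and 35.5% and 38.1% in damaged. Blood cell and liver markers took 0.148% to 0.172%, nearly all of it the red cell miRNA miR-451a. That miRNA had 1684 and 1490 CPM in WT and 1501 and 1386 CPM in damaged. Epithelial markers took at most 0.00122%. Endothelial markers were at 0, and so were 7 of 8 neural rows. Both endothelial rows, 5 neural rows and 3 of the 7 blood cell and liver rows (miR-122-5p, miR-142a-3p and miR-486-5p) were at 0. All of these share bases with an opposite-strand entry, so these shares do not measure them. Of the 6 skeletal muscle rows, that of Mir1a-2 (miR-1a-3p) was also at 0 and shares bases with such an entry. The muscle shares leave it out too. Serum in the medium holds bovine vesicles, and a bovine miR-26 with the mouse sequence would be counted in these rows; its part was not tested.

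miR-26a-5p was among the abundant miRNAs of the vesicles and stood at nearly one level in all 4 libraries. Its 2 rows together held 38081 and 65928 counts in the WT libraries and 61171 and 63550 in the damaged ones, which is 0.832% and 0.863%, and 0.886% and 0.865%, of all miRNA counts. On the TMM-scaled CPM scale, which adjusts for library size and composition, its levels were 8172 and 8822 in WT and 8832 and 8646 in damaged. On this scale the groups overlapped, with WT replicate 2 between the damaged libraries. That depended on scaling: by share of counts both damaged libraries lay above both WT libraries, and with upper-quartile scaling both lay below them (8560 and 9852 CPM in WT, 8371 and 7799 CPM in damaged). WT vesicles averaged 8497 ± 460 CPM and damaged ones 8739 ± 132 CPM (SD, n = 2 each).

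miR-26b-5p, the form made from a single hairpin, was lower, and its groups were close too. It held 11336 and 19518 counts in WT and 17239 and 20589 in damaged, or 0.248% and 0.256%, and 0.250% and 0.280%, of all miRNA counts. Its levels were 2433 and 2612 CPM in WT and 2489 and 2801 CPM in damaged. The groups overlapped here too, by share and by CPM, since damaged replicate 1 lay between the WT libraries. With upper-quartile scaling both damaged libraries lay below both WT libraries (2548 and 2917 CPM in WT, 2359 and 2527 CPM in damaged). WT vesicles averaged 2522 ± 127 CPM against 2645 ± 221 CPM for damaged ones (SD, n = 2 each).

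Together the 2 forms made up 1.10 ± 0.0276% of WT counts and 1.14 ± 0.00604% of damaged counts (SD, n = 2 each). Summed by seed, UCAAGUA was the 12th or 13th most counted of the 487 to 536 seeds detected in a library. In a single library, miR-26a-5p ranked between 20 and 22 and miR-26b-5p between 31 and 34 among mature IDs. These levels are shares of vesicle miRNA, so a change in the number of vesicles or in RNA per vesicle cannot be told apart from them.

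Neighbours in the order of mean level did not all differ from the miR-26 forms. By the mean over 4 libraries miR-26a-5p was 20th with 8618 CPM. miR-181a-5p above it (10147 CPM) and miR-196b-5p (8378 CPM) and let-7g-5p (7604 CPM) below it had ranges that overlapped its own. let-7d-5p, at 11338 CPM, was above it in every library. miR-26b-5p was 31st with 2584 CPM. miR-6240 above it and miR-16-5p and let-7e-5p below it overlapped its range, and miR-149-5p, at 3327 CPM, lay above it in every library. CPM compares molecules of nearly one length here and is not divided by length.

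**Figure D1:**
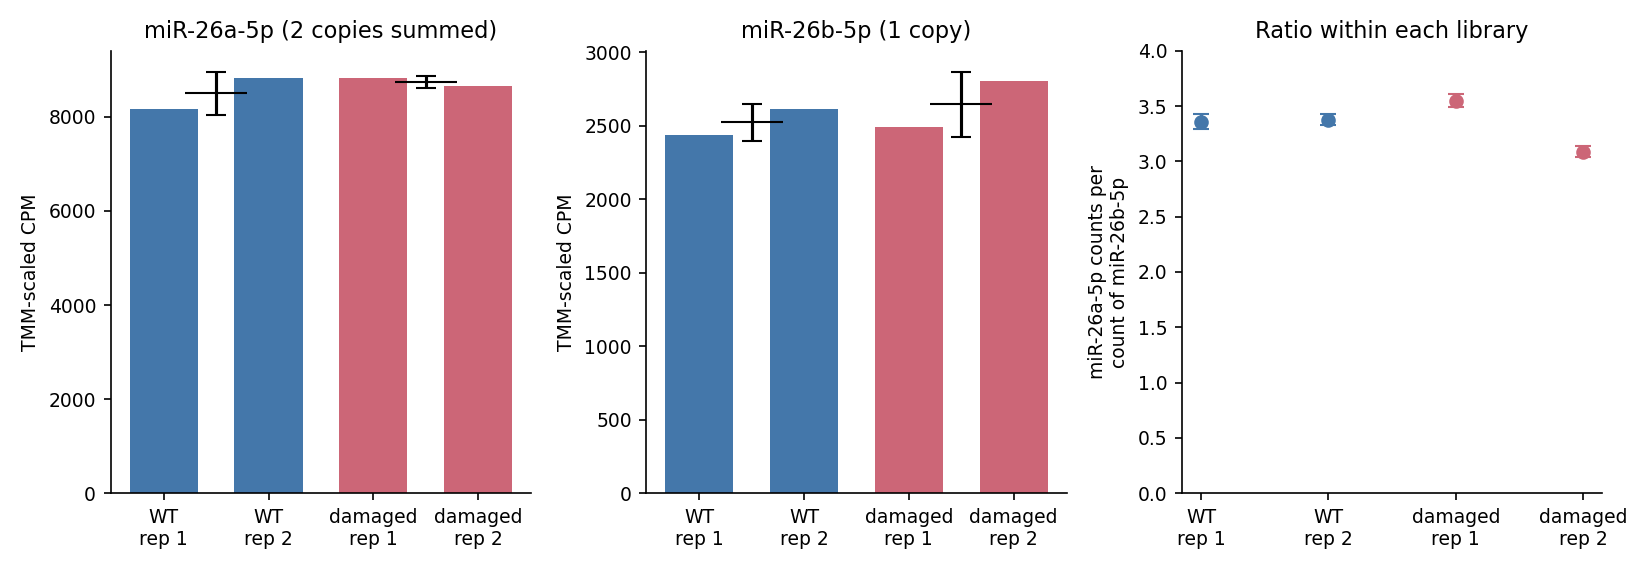
Levels of miR-26a-5p (left, both copies summed) and miR-26b-5p (middle) in TMM-scaled CPM, and their ratio of counts (right), in each of the 4 libraries; bars are libraries, black marks are group means with SD (n = 2), and error bars on the ratio are exact 95% counting intervals. miR-26a-5p sits between 8172 and 8832 CPM and miR-26b-5p between 2433 and 2801 CPM, with groups that overlap on this scale, while the ratio of damaged replicate 2, 3.09, lies below the other three.

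Neither 5p form passed the test for a difference between damaged and WT vesicles. For miR-26a-5p the log2 fold change, damaged over WT, was 0.04 ± 0.11 (SE), with a 95% interval of -0.25 to 0.33 and an adjusted p of 0.891 in edgeR's quasi-likelihood test. The interval reaches from 1.19-fold lower to 1.26-fold higher in damaged vesicles. For miR-26b-5p it was 0.07 ± 0.12 (SE), with an interval of -0.24 to 0.38, from 1.18-fold lower to 1.30-fold higher, and an adjusted p of 0.808 in the same edgeR test. A p above the threshold does not show that the groups are equal, but differences beyond those bounds lie outside the intervals of this fit. The bounds hold for TMM scaling only. With upper-quartile scaling the estimates were -0.19 ± 0.15 for miR-26a-5p and -0.16 ± 0.15 for miR-26b-5p (SE). With library totals without miR-206-3p they were 0.15 ± 0.12 and 0.18 ± 0.14 (SE).

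With gene copies kept as separate rows, 5 of the 6 member rows could be tested and 0 were called at an adjusted p under 0.05 by edgeR, against a background of 9.51% of 536 tested rows (4.1% higher and 5.41% lower in damaged, 22 and 29 rows). Of the member rows 0 also reached an unadjusted p under 0.05, with edgeR, DESeq2, limma-voom or any of the other settings, whereas 165 of all rows did with edgeR. In the table with copies summed 10.1% of 483 mature IDs were called. The median size of the log2 fold change over those 483 was 0.61, and 22 of them had a smaller one than miR-26a-5p and 39 a smaller one than miR-26b-5p.

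**Figure D2:**
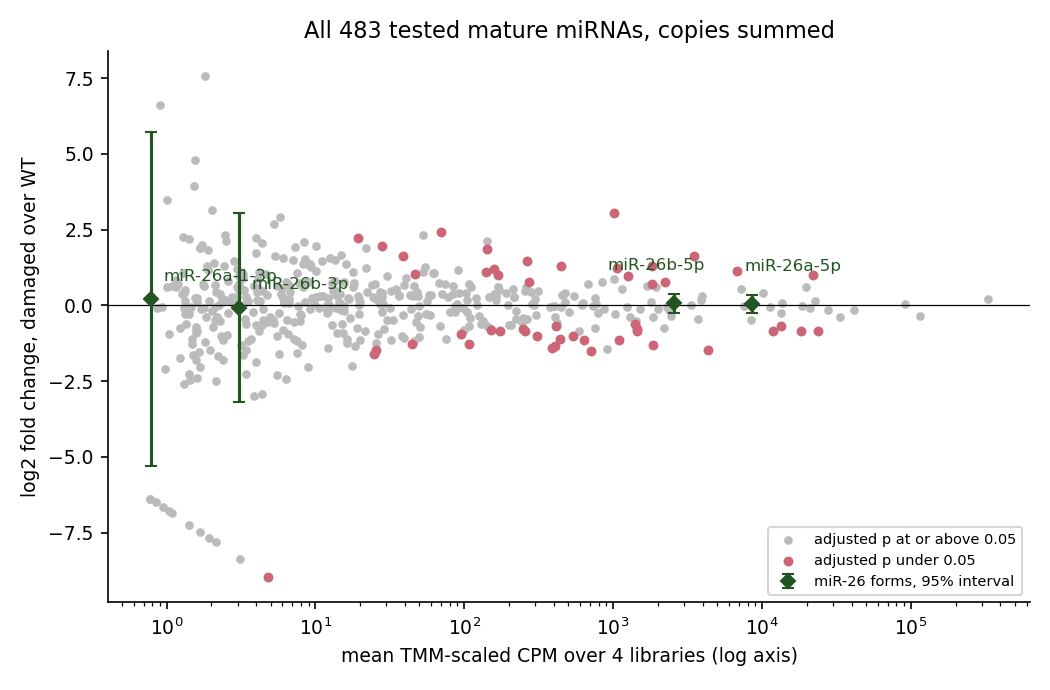
Log2 fold change, damaged over WT, against mean TMM-scaled CPM (log axis) for the 483 tested mature miRNAs with copies summed; red points have an adjusted p under 0.05 in edgeR's test, and green diamonds with 95% intervals are the tested miR-26 forms. miR-26a-5p (0.04) and miR-26b-5p (0.07) have short intervals around 0, while those of the rare 3p arms span several log2 units.

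The 2 gene copies of miR-26a-5p gave one reading. The row of Mir26a-1 held 50.4% (exact 95% interval 49.9 to 50.9) and 50.4% (50.0 to 50.7) of the miR-26a-5p counts in the WT libraries. In the damaged libraries it held 49.9% (49.5 to 50.3) and 50.0% (49.6 to 50.4). Their mature sequences are identical, so the even split says nothing about which hairpin was transcribed. The log2 fold changes were 0.01 ± 0.11 for the Mir26a-1 row and 0.04 ± 0.11 for the Mir26a-2 row (SE; adjusted p 0.967 and 0.893, edgeR).

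The proportion of the 2 forms, which does not depend on scaling, was also similar between groups on average. There were 3.36 and 3.38 counts of miR-26a-5p per count of miR-26b-5p in the WT libraries and 3.55 and 3.09 in the damaged ones. The WT libraries agree within their counting intervals (3.29 to 3.43, and 3.32 to 3.43), and the damaged libraries lay on either side of them (3.49 to 3.61, and 3.04 to 3.14). Means were 3.37 ± 0.0131 in WT and 3.32 ± 0.327 in damaged (SD, n = 2 each), with p = 1 in an exact two-sided permutation test, which cannot go below 0.33 for 2 libraries against 2. The gap between the damaged libraries was larger than the difference between group means.

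Among well-measured miRNAs, both forms had narrow ranges over the 4 libraries. miR-26a-5p varied 1.08-fold from the lowest to the highest library and miR-26b-5p 1.15-fold. Of 145 mature IDs with a mean of at least 100 CPM, only miR-181b-5p, at 1.04-fold, had a narrower range than miR-26a-5p. miR-26b-5p had the 12th narrowest range, and the median range was 1.61-fold. The positions depended on scaling. With library totals the forms stood 3rd and 8th and with RLE scaling 1st and 2nd, but with upper-quartile scaling 26th and 18th, at 1.26-fold and 1.24-fold.

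On the TMM scale, several miRNAs that are often used as normalisers in vesicle work had wider ranges in these libraries. let-7a-5p varied 1.23-fold, miR-103-3p 1.28-fold and miR-16-5p 1.54-fold. miR-484, miR-191-5p and miR-93-5p varied 1.89-fold, 1.90-fold and 1.95-fold. In the table of single rows, whose scaling differs slightly from that of the summed table, 10 rows of the 7 listed miRNAs were tested: 2 were higher in damaged vesicles, 1 lower and 7 did not pass, where 4.1% of all tested rows were higher and 5.41% lower. The median log2 fold change of the list was 0.17, beside 0.02 over all tested rows. miR-191-5p, at 1340 and 1433 CPM in WT and 2075 and 2409 CPM in damaged, rose by a log2 fold change of 0.69 (adjusted p 0.0356, edgeR), a call lost with upper-quartile scaling at 0.0567. miR-484 rose from 213 and 194 to 319 and 366 CPM, by 0.75 (adjusted p 0.0460, edgeR), a call lost with the GC correction at an adjusted p of up to 0.145. miR-93-5p, at 1997 and 1694 CPM in WT, was at 1131 and 972 CPM in damaged and fell by 0.81 (adjusted p 0.0335, edgeR). The most abundant rows of the list, the copies of let-7a-5p, had log2 fold changes of 0.12 and 0.14 (adjusted p 0.511 and 0.437, edgeR). A difference in range between miR-26a-5p and these miRNAs was not tested. Ranges of the normalisers under other scalings are not given here. With upper-quartile scaling miR-26a-5p itself ranged 1.26-fold and miR-26b-5p 1.24-fold, so the order above is that of TMM scaling only.

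**Figure D3:**
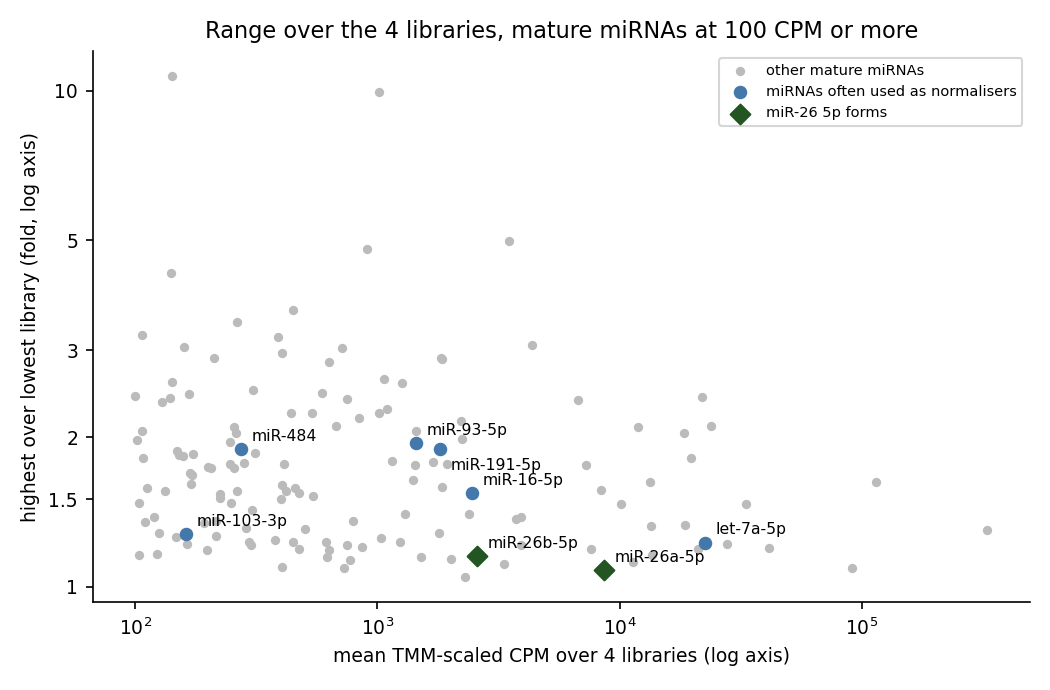
Highest over lowest library (fold, log axis) against mean TMM-scaled CPM (log axis) for the 145 mature miRNAs at 100 CPM or more; blue points are miRNAs often used as normalisers and green diamonds the miR-26 5p forms. With TMM scaling, miR-26a-5p (1.08-fold) and miR-26b-5p (1.15-fold) lie near the lower edge, below let-7a-5p at 1.23-fold and miR-93-5p at 1.95-fold.

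The pattern most like that of miR-26a-5p was sought as the smallest Euclidean distance between log2 CPM values centred over the 4 libraries, among the same 145 mature IDs. Nearest was let-7c-5p, at a distance of 0.0206, with 86325 and 94238 CPM in WT and 93079 and 92660 CPM in damaged. Next came miR-423-3p at 0.112, miR-181b-5p at 0.126, miR-28a-5p at 0.137 and miR-26b-5p at 0.145, where the median distance was 0.574. For miR-26b-5p the nearest were let-7a-1-3p at 0.0224, let-7c-2-3p at 0.0313, let-7i-5p at 0.0831, let-7a-5p at 0.0888 and let-7d-5p at 0.105. These are forms of the let-7 family, which has many entries among the 145 mature IDs, a number of them with narrow ranges. A link between miR-26b-5p and that family was not tested. let-7a-1-3p ran from 585 and 631 CPM in WT to 589 and 672 CPM in damaged. With 4 libraries and 2 groups, likeness is a description of levels that hardly moved.

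The 3p arms of the miR-26 hairpins were close to absent and differed more between replicates than between groups. miR-26b-3p had 26 and 6 counts in WT and 8 and 35 in damaged. miR-26a-1-3p had 7 and 0 counts in WT and 0 and 12 in damaged. miR-26a-2-3p had 0 and 10 counts in WT and 10 and 5 in damaged. The groups overlapped for each arm. miR-26a-2-3p missed the filter on low counts, and the log2 fold changes of miR-26b-3p and miR-26a-1-3p were -0.13 ± 1.20 and 0.14 ± 2.17 (SE; adjusted p 0.967 and 0.982, edgeR), so a change several-fold in size would not have been detectable at this depth.

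As a share of the counts of Mir26b, the 3p arm held 0.229% (exact 95% interval 0.150 to 0.335) and 0.0307% (0.0113 to 0.0669) in WT. In damaged libraries it held 0.0464% (0.0200 to 0.0914) and 0.170% (0.118 to 0.236). WT replicate 1 and damaged replicate 2 were high, and the other two were low, with counting intervals that do not meet. Over the 3 hairpins together the 3p share averaged 0.0427 ± 0.0339% for WT against 0.0424 ± 0.0274% for damaged (SD, n = 2 each; exact two-sided permutation p = 1). Intervals and floors cover counting error only, since the labels mention no molecular identifiers.

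Across 165 hairpins with both arms in the table and at least 1000 counts over the 4 libraries, the less counted arm held a median of 0.897% of the counts (quartiles 0.109% and 5.36%). It held 0.0166% for Mir26a-1, 0.0219% for Mir26a-2 and 0.109% for Mir26b. Of the 165 hairpins, 28, 29 and 41 had a smaller share than these, and the counts fell mostly on the 5p arm in 100. By row counts all 3 miR-26 hairpins thus lay in the lower part of that range. The identical 5p reads of Mir26a-1 and Mir26a-2 cannot be assigned to a copy. Their separate shares and positions therefore depend on how those reads were placed. With these 2 hairpins combined, the 3p share of a library lay between 0.0152% and 0.0267%. In sequence, the longest run of the 3p arm that is the reverse complement of its own 5p arm was GAUUACUUG for miR-26a-2-3p, AUUACUUG for miR-26b-3p and UUACUUG for miR-26a-1-3p, which are 9, 8 and 7 bases.

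**Figure D4:**
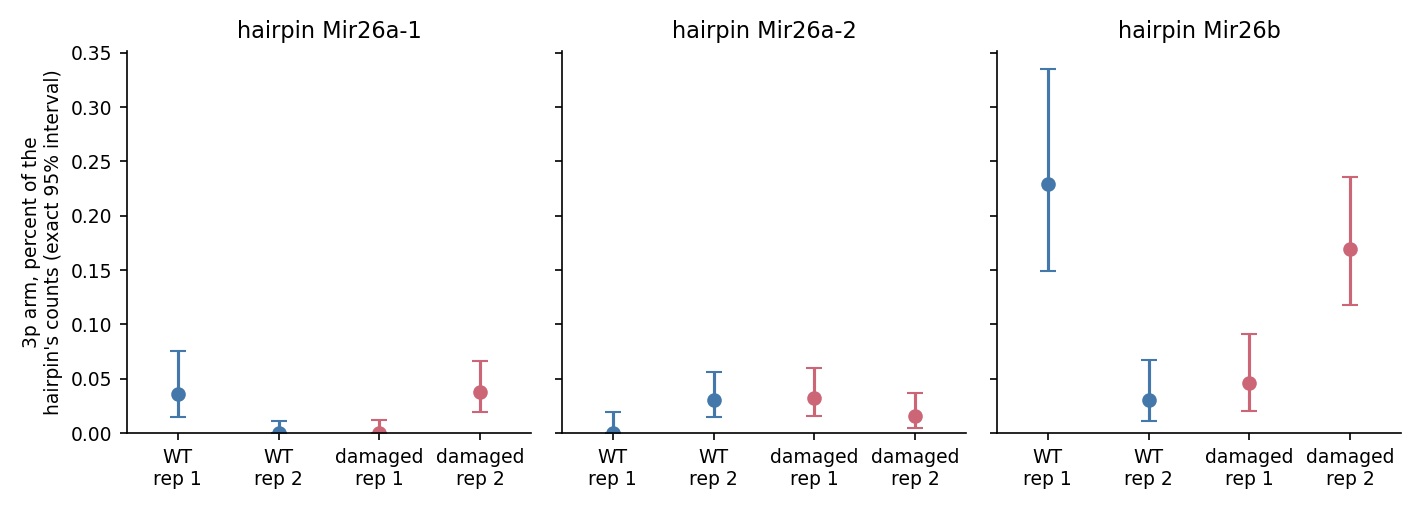
Share of the 3p arm in the counts of each miR-26 hairpin (percent) in the 4 libraries, with exact 95% counting intervals. For Mir26b, WT replicate 1 (0.229%) and damaged replicate 2 (0.170%) stand above WT replicate 2 (0.0307%) and damaged replicate 1 (0.0464%), and every share is far under 1% of the hairpin.

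Other miRNAs known to target Ezh2 did not pass the test. Of 6 rows of miR-101a, miR-101b, miR-101c, miR-138 and miR-214, 5 were tested and 0 were called with edgeR, where 9.51% of all 536 tested rows were. An unadjusted p under 0.05 was reached by 1 of the 5, and by 165 of the 536. The list's median log2 fold change was 0.15, beside 0.02 over all tested rows. miR-214-3p was the most abundant, with 1558 and 1111 CPM in WT and 318 and 652 CPM in damaged. Its damaged libraries lay below both WT libraries, with -1.46 ± 0.37 (SE) on the log2 scale and an adjusted p of 0.0642 (edgeR). Whether it passed depended on the setting: it did in 7 of 12 others with all 4 libraries, DESeq2 among them (adjusted p 2.02e-05). With 1 library left out its log2 fold change ran from -2.10 to -1.01. miR-101b-3p had 13.3 and 24.8 CPM in WT and 31.9 and 30.3 CPM in damaged, at 0.70 ± 0.37 (SE; adjusted p 0.263, edgeR).

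Of the miRNAs that like miR-26a promote myoblast differentiation, 19 of 24 rows were tested: 3 were higher in damaged vesicles, 1 was lower and 15 did not pass, where 4.1% of all tested rows were higher and 5.41% lower. The list's median log2 fold change was 0.11, beside 0.02 over all tested rows. The other 5 rows were at 0 in every library and share bases with an opposite-strand entry. The 3 higher rows were miR-133b-3p, made from a cluster with miR-206, and both miR-133a-3p rows, made from clusters with miR-1. Both miR-133a-3p rows are copies of 1 mature sequence, so their calls are not separate results. Some other miRNAs of the list, such as miR-181a-5p, also have more than 1 tested row. The Mir133a-1 row rose from 2035 and 2177 CPM in WT to 4645 and 4609 CPM in damaged, by 1.14 on the log2 scale (adjusted p 0.00914, edgeR), and the Mir133a-2 row rose by 1.12. miR-133b-3p rose by 1.22 (adjusted p 0.0107, edgeR), from 615 and 664 to 1580 and 1403 CPM. The lower row was miR-322-5p, a miRNA of the miR-15 seed family known to act on cell cycle genes, which was at 2715 and 2592 CPM in WT and 1211 and 897 CPM in damaged and fell by 1.33 (adjusted p 0.0180, edgeR).

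The most abundant rows of that list did not pass. miR-206-3p, the leading muscle miRNA, had 290296 and 326855 CPM in WT and 341487 and 357644 CPM in damaged (log2 fold change 0.18, adjusted p 0.334, edgeR). miR-27b-3p, which acts on Pax3 in muscle progenitors, had 42904 and 33492 CPM in WT and 28543 and 28547 CPM in damaged (log2 fold change -0.42, adjusted p 0.124, edgeR).

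Of 5 rows of miRNAs that restrain differentiation, 2 were higher, where 4.1% of all tested rows were. Both are copies of 1 mature sequence, miR-125b-5p, whose known muscle target is Igf2. The list's median log2 fold change was 0.46, beside 0.02 over all tested rows. Its Mir125b-2 row had 766 and 879 CPM in WT and 1361 and 1415 CPM in damaged, and the copies rose by 0.75 and 0.78 (adjusted p 0.0305 for both, edgeR). These lists were drawn up with results of these libraries known. Their calls rest on all 4 libraries. With 1 library left out, a group holds 1 library, and in the single-row table calls were lost over all tested rows as in these lists. Members of the miR-26 family were left out of the lists.

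**Figure D5:**
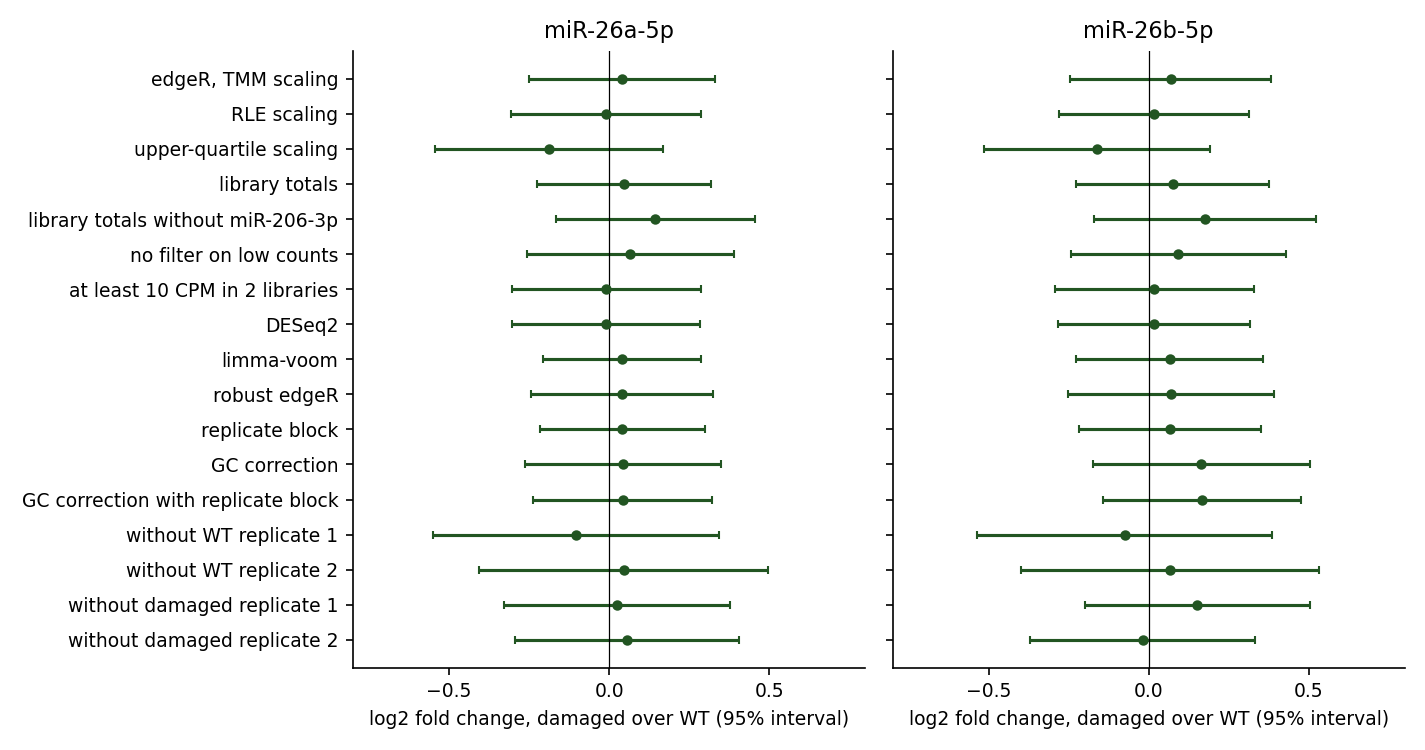
Log2 fold change, damaged over WT, of miR-26a-5p (left) and miR-26b-5p (right) with 95% intervals under each scaling, filter, tool and correction and with each library left out; the vertical line marks no difference. Every interval spans 0, and the estimates run from -0.19 to 0.15 for miR-26a-5p and from -0.16 to 0.18 for miR-26b-5p with all 4 libraries.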

How the data were processed

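The deposited file holds raw read counts per mature miRNA row, 1 column per library, and replicates were not pooled. The submitters' processing notes name BWA, FastQC, featureCounts and mm10. Per the file headers, version 2.0.1 of featureCounts counted miRNA features by ID, with no strand option and none for multi-mapping or multi-overlapping reads. No source used here gives the BWA version or the trimming. Reads shared by identical copies may thus have been placed in either row.

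Rows were named by exact position in the RefSeq table (1734 rows), otherwise by other copies of the same ID or GENCODE vM21 hairpins (366), and 10 stayed unnamed. Counts were tested with edgeR 4.0.16 in R 4.3.3 (quasi-likelihood test, TMM, filterByExpr with min.count 10, no covariate beside group, Benjamini-Hochberg at 0.05) over 536 rows, and over 483 mature IDs with copies summed. The SE is the log2 fold change divided by the square root of F. The procedure was also run on counts simulated with the levels and spread of these same libraries. The outcome is not given here. Ratios and arm shares were compared by exact permutation over libraries, with exact (Clopper-Pearson) 95% intervals. Named miRNAs were all miR-26 rows, the called and the 2 most abundant rows of each list, the 5 patterns nearest to each 5p form, and miR-206-3p. Level neighbours and markers are named as well; they fall outside that rule. Other settings were RLE, upper-quartile and library-total scaling, with and without miR-206-3p, no filter, at least 10 CPM in 2 libraries, DESeq2 1.42.0, limma-voom 3.58.1, robust edgeR, a GC correction (spline with 3 degrees of freedom), a replicate block, and leaving out each library. The members and lists were chosen with earlier results of these data known.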

Additional observations from a re-analysis of the deposited data

How the results depend on the processing

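With all 4 libraries the log2 fold change of miR-26a-5p lay between -0.19 and 0.15 (adjusted p 0.479 to 0.989) and that of miR-26b-5p between -0.16 and 0.18 (adjusted p 0.458 to 0.989), and neither passed under any setting run with edgeR, DESeq2 or limma-voom. The sign of miR-26a-5p turned with RLE scaling (-0.0095), DESeq2 (-0.0095), at least 10 CPM in 2 libraries (-0.0080) and upper-quartile scaling (-0.19), and that of miR-26b-5p with upper-quartile scaling (-0.16). Upper-quartile scaling put the median of all mature IDs at -0.16 and library totals without miR-206-3p at 0.16, against 0.06 with TMM. Relative to that median miR-26a-5p was at -0.03 and -0.02, and miR-26b-5p at 1.0e-04 and 0.01. With the GC correction miR-26b-5p was at 0.15 relative to the median, or 0.18 with the replicate block as well, against 0.005 with neither. In the same order miR-26a-5p was at 0.03, 0.06 and -0.02. Leaving out 1 library gave -0.10 to 0.056 for miR-26a-5p and -0.075 to 0.15 for miR-26b-5p.

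The number of rows called moved from 51 to 77 with upper-quartile scaling, 131 with no filter, 91 with the stricter filter, 106 with DESeq2 and 79 with limma-voom, and to between 0 and 1 with 1 library left out; the causes were not tested. With copies summed, 49 of 483 mature IDs were called, and 0 without WT replicate 1 or 2, 23 without damaged replicate 1 and 18 without damaged replicate 2. Of the rare 3p arms, miR-26b-3p was at 0.050 with library totals without miR-206-3p, 0.70 with limma-voom, and -1.45 to 1.87 with 1 library left out (0.58 without damaged replicate 1). miR-26a-1-3p ran from -5.21 to 5.59 with 1 library left out (-0.93 without WT replicate 2).

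Deviations of same-numbered libraries were hardly correlated (0.0185 over 483 mature IDs). A single correlation over miRNAs does not settle whether replicate numbers pair the libraries. With the replicate block miR-26a-5p was at 0.04 and miR-26b-5p at 0.07 (adjusted p 0.930 and 0.867, edgeR), miR-26b-3p was at 0.10, or 0.089 with the GC correction as well, and 127 rows were called, or 121 with the GC correction. Counts of 0 to 35 limit what can be said of the 3p arms.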
